A study of Rattus norvegicus with 4 samples.

Results

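The solute carrier families Slc1, Slc3, Slc6, Slc7, Slc36, Slc38 and Slc43 hold most of the proteins that move amino acids and related small molecules across the plasma membrane and the lysosomal membrane. Their genes were taken by symbol from the gene table, with the number suffix of further copies removed and the row with the highest mean kept for each symbol, which gave 59 of 17244 symbols. The symbol rule also takes Slc7a6os, which is named for its place beside Slc7a6 and encodes no carrier. It is kept in the counts and left out of all sums of carriers.

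RNA came from RSC96, an established Schwann cell line of the rat. Schwann cells are the glia that wrap peripheral axons. Serum was withheld overnight, then recombinant rat IL-22, which belongs to the cytokines related to IL-10, was added to 2 samples at 100 ng/ml for 48 h, while 2 control samples had only the solvent, 0.1% bovine serum albumin, for a time the labels do not state. Serum withdrawal was shared by both groups. The labels do not say that the samples came from separate cultures, so p-values measure only the spread between these samples, which may be technical. Levels are FPKM, fragments scaled by transcript length and library size, which lets genes be compared within a library.

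The libraries had 11641 and 11617 rows above 0 with IL-22 and 11196 and 11412 in controls, and the spacing of low values put their depth at 1.08 for both IL-22 libraries and at 1 and 1.28 for the controls, relative to control library 1. Ribosomal RNA rows moved with the groups: Rn28s was listed at 0 in both IL-22 libraries, against 4015 and 2715 FPKM in controls, while Rn5-8s was at 593 and 614 FPKM with IL-22, against 27.6 and 16.5 FPKM in controls, and their part in the results below was not tested. Of 11 Schwann lineage markers with a row, 6 were at 0 or averaged under 1 FPKM and were not tested, among them Sox10 and S100b, each at or under 0.0760 FPKM in every library, so these defining markers were nearly absent. The summed FPKM of all 11 was 56.6 and 59.5 with IL-22, against 25.5 and 27.0 in controls, and most of it was Pmp22 (41.0 and 42.3 FPKM with IL-22, against 18.2 and 20.2 FPKM in controls). Of the 5 tested, 4 were higher and Gfap was lower (-0.70), where 27.6% of all rows tested were higher and 30.8% lower. Egr2 and Erbb3 averaged 0.460 and 0.752 FPKM in controls and were tested only through the IL-22 libraries. Gfap averaged 0.653 FPKM with IL-22 and was tested only through the controls. The 7 fibroblast markers summed to 406 and 411 FPKM with IL-22, against 409 and 400.1 FPKM in controls, mostly Thy1 and Col1a2. Among the 5 tested, 3 were higher and 2 lower, beside the same 27.6% and 30.8% of all rows tested. The 7 macrophage markers summed to 6.25 and 3.80 FPKM with IL-22, against 4.47 and 4.19 FPKM in controls, and the 5 neuron markers to 0.191 and 0.0582 FPKM with IL-22, against 0 and 0 FPKM in controls.

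Amino-acid carriers work in classes. The heavy chain encoded by Slc3a2 (CD98) brings light chains of the Slc7 family to the cell surface, where these exchange an amino acid for another. Net import therefore also needs carriers driven by sodium, such as the glutamate carriers of the Slc1 family and carriers of the Slc38 family. Lack of amino acids is sensed by the kinase GCN2, whose signal raises the translation of the transcription factor ATF4, and many carrier genes are known ATF4 targets in mammals. Leucine, arginine and glutamine brought in by these carriers feed the growth-control kinase complex mTORC1 at the lysosome. In glia, carriers of glutamate, glycine and taurine also clear transmitters and balance osmotic load.

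With IL-22, the genes of the most abundant light chain (Slc7a5), its heavy chain (Slc3a2), both neutral Slc1 carriers, the cationic carrier Slc7a1 and the glutamate carrier Slc1a1 were higher, while the main system A carrier (Slc38a2) did not pass the test and the taurine carrier (Slc6a6) was lower. Of the 59 genes, 19 were listed at 0 in all 4 libraries, 20 were above 0 but averaged under 1 FPKM, and 20 averaged at least 1 FPKM and were tested. Among the 20 tested, 12 were higher with IL-22 (limma adjusted p under 0.05, over all 9485 rows tested), where 27.6% of all rows tested were higher. Another 3 were lower, where 30.8% of all rows were lower, and 5 did not pass. The IL-22 and control values did not overlap in 19 of the 20, where 80.1% of all rows tested did not overlap. Of the 20 tested, 9 were higher by at least 1 on the log2(FPKM + 1) scale, where 4.68% of all rows tested were higher by that much. The median difference of the 20 was 0.55, beside -0.02 over all rows tested. One of the 20, Slc7a11, averaged under 1 FPKM in controls and passed the expression minimum only through the IL-22 libraries. Without it, 11 of 19 were higher, 8 of them by at least 1, and 3 were lower, with a median of 0.32. Fewer cells of a type and less RNA per cell cannot be told apart in such bulk samples.

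**Figure D1:**
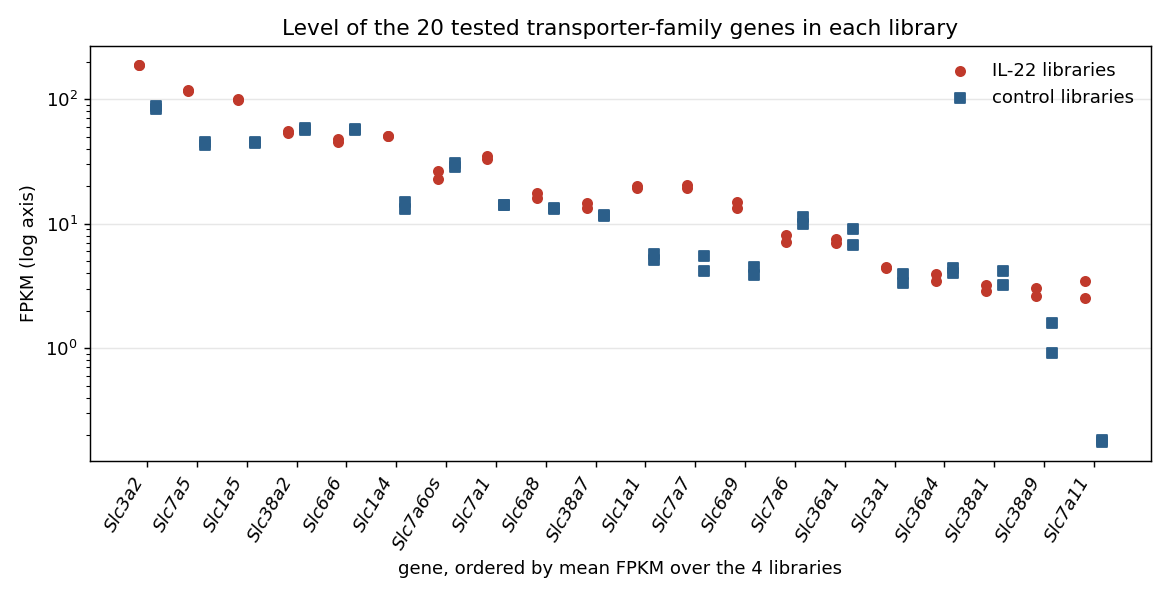
FPKM on a log axis of the 20 tested genes of the transporter families, ordered by their mean over the 4 libraries, with circles for IL-22 libraries and squares for control libraries. Slc3a2, at 189 and 188 FPKM with IL-22 and 88.9 and 83.7 FPKM in controls, is the highest, and Slc7a11 shows the widest gap between the groups.

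The heavy chain Slc3a2 was the most abundant member, at 189 and 188 FPKM with IL-22, against 88.9 and 83.7 FPKM in controls. Both IL-22 libraries lay far above both controls, and the 2.19-fold rise was a difference of 1.12 ± 0.06 (SE; limma adjusted p = 1.71e-06). Slc3a1, the heavy chain that partners the cystine and dibasic amino-acid carrier of kidney and gut, measured 4.40 and 4.45 FPKM with IL-22, against 3.94 and 3.35 FPKM in controls. Its groups did not overlap, yet the difference of 0.23 ± 0.13 did not pass (limma adjusted p = 0.156, 95% interval -0.06 to 0.52).

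Among the light chains, Slc7a5 (LAT1), the importer of leucine and other large neutral amino acids, led at 119 and 116 FPKM with IL-22, against 43.1 and 45.5 FPKM in controls. Its rise was 2.65-fold (1.39 ± 0.07, limma adjusted p = 6.66e-07). Slc7a11 (xCT) exchanges intracellular glutamate for extracellular cystine, the precursor of glutathione. It was at 3.44 and 2.53 FPKM with IL-22, against 0.183 and 0.175 FPKM in controls, a 16.6-fold ratio of means and the largest such ratio of any tested member (1.75 ± 0.18, limma adjusted p = 5.06e-05). Because its control level was low, the size of the log2 difference rests on the pseudocount, at 3.45 with 0.1 FPKM and 0.62 with 5 FPKM, and the call held at both. In absolute level Slc7a11 stayed a minor light chain, at 2.25% and 1.73% of the summed light-chain FPKM with IL-22, against 0.314% and 0.274% in controls.

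The 2 light chains of system y+L, which exchange cationic for neutral amino acids, moved in opposite directions. Slc7a7 (y+LAT1), mutated in lysinuric protein intolerance in humans, was at 20.5 and 19.4 FPKM with IL-22, against 4.15 and 5.51 FPKM in controls (1.86 ± 0.12, limma adjusted p = 4.20e-06). Slc7a6 (y+LAT2), described in detail after its values were seen, was at 8.10 and 7.12 FPKM with IL-22, against 9.91 and 11.4 FPKM in controls (-0.44 ± 0.11, limma adjusted p = 0.00875). That call was lost without control library 2 (adjusted p = 0.080) and without IL-22 library 2 (adjusted p = 0.0537). The order of the 2 genes therefore differed between the groups: Slc7a7 was at 2.53 and 2.73 times Slc7a6 with IL-22, against 0.419 and 0.484 times in controls. An exact two-sided permutation test of 2 libraries against 2 cannot give less than 0.33, which is the value this ratio had.

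The light-chain shares of the 3 main genes did not overlap between the groups, where 80.1% of all rows tested did not overlap in FPKM. Each of these shares had an exact two-sided permutation p of 0.33, the smallest that 2 libraries against 2 allow. As parts of the same sum, they do not vary independently. Slc7a5 held 78.2% and 79.5% of the summed light-chain FPKM with IL-22, against 74.1% and 71.1% in controls, Slc7a7 held 13.4% and 13.3% with IL-22, against 7.13% and 8.60% in controls, and Slc7a6 held 5.32% and 4.88% with IL-22, against 17.0% and 17.8% in controls. Summed over the 10 light-chain genes, the level was 149 ± 4.68 FPKM with IL-22 and 61.1 ± 4.16 FPKM in controls (SD, n = 2 each), a ratio of 2.44, beside a ratio of 2.15 for the 2 heavy chains. Per FPKM of the 6 light chains that pair with it, Slc3a2 was at 1.24 and 1.30 with IL-22, against 1.54 and 1.33 in controls. The groups did not overlap in that measure, but control library 2 lay nearer to the IL-22 libraries than to control library 1.

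**Figure D2:**
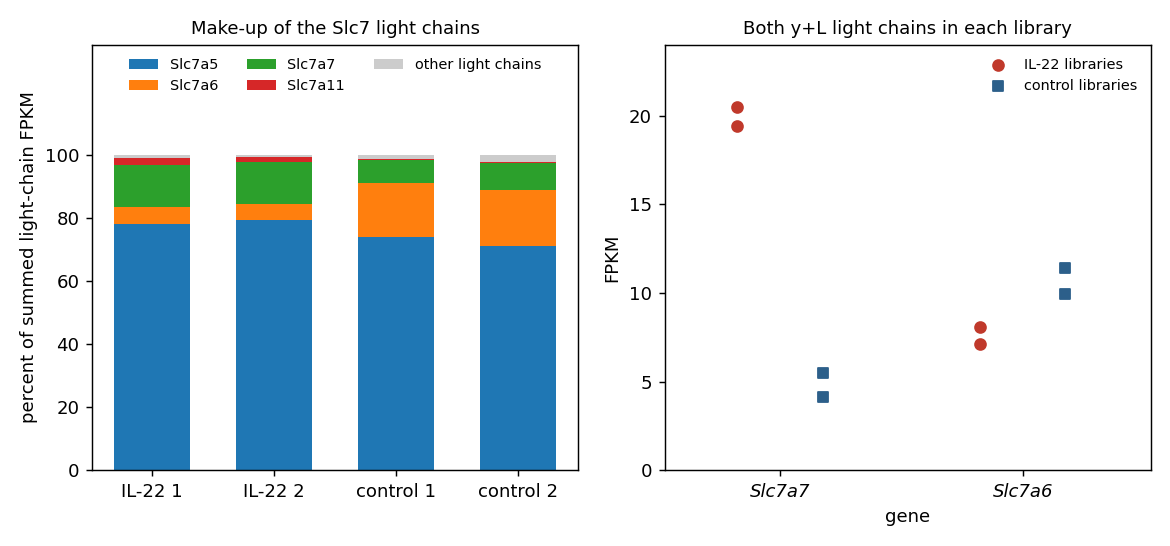
Left, percent of the summed light-chain FPKM held by each Slc7 light chain in each library, IL-22 libraries first. Right, FPKM of Slc7a7 and Slc7a6 in IL-22 libraries (circles) and control libraries (squares), with Slc7a7 at 20.5 and 19.4 FPKM with IL-22 above both Slc7a6 values, and below them in controls at 4.15 and 5.51 FPKM.

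The cationic carrier Slc7a1 (CAT1), the widely expressed importer of arginine and lysine, was at 35.01 and 32.79 FPKM with IL-22, against 14.0 and 14.2 FPKM in controls (1.21 ± 0.08, limma adjusted p = 4.07e-06). It made up at least 97.7% of the summed FPKM of the 5 cationic carrier genes in every library. Slc7a3 (CAT3) was under the expression minimum, at 0.817 and 0.583 FPKM with IL-22, against 0.0632 and 0.0493 FPKM in controls. Tested without that minimum it was higher (0.68 ± 0.09, limma adjusted p = 0.00722), where 20.3% of rows in that fit were higher, and it was the only one of the 20 low members to pass there, chosen after its values were seen. Slc7a2, the carrier that supplies arginine to inducible nitric oxide synthase in macrophages, was listed at 0 in all 4 libraries, as were Slc7a4, Slc7a10, Slc7a13 and Slc7a15.

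The neutral carriers of the Slc1 family rose together. Slc1a5 (ASCT2), an exchanger that takes up glutamine, was at 99.0 and 99.6 FPKM with IL-22, against 44.5 and 45.3 FPKM in controls (1.13 ± 0.06, limma adjusted p = 1.74e-06). Slc1a4 (ASCT1), which exchanges serine, alanine and cysteine, was at 51.0 and 51.0 FPKM with IL-22, against 15.0 and 13.1 FPKM in controls (1.79 ± 0.08, limma adjusted p = 6.29e-07). Slc1a4 was thereby at 0.515 and 0.512 times Slc1a5 with IL-22, against 0.336 and 0.290 times in controls. Among the glutamate carriers, Slc1a1 (EAAT3), which also takes up cysteine, was at 20.2 and 19.2 FPKM with IL-22, against 5.72 and 5.11 FPKM in controls (1.69 ± 0.10, limma adjusted p = 2.08e-06). The glial glutamate carriers of the brain were low: Slc1a3 (GLAST) measured 0.393 and 0.423 FPKM with IL-22, against 0.492 and 0.384 FPKM in controls, and Slc1a2 (GLT-1) was above 0 in IL-22 library 1 alone, at 0.291 FPKM. Slc1a1 held at least 92.1% of the summed FPKM of the 5 glutamate carrier genes in every library.

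In the Slc38 family 2 of 4 tested genes were higher and 0 lower, where 27.6% of all rows tested were higher and 30.8% lower. None of the 4 was higher by at least 1 on the log2(FPKM + 1) scale. Slc38a2 (SNAT2), the sodium-driven system A carrier of alanine and glutamine and a known target of the amino-acid response in mammals, measured 55.4 and 53.5 FPKM with IL-22, against 56.8 and 58.3 FPKM in controls. The difference of -0.08 ± 0.07 did not pass (limma adjusted p = 0.335), and its 95% interval of -0.23 to 0.07 holds no value near the rises of the Slc1 and Slc7 genes above. Slc7a5 was at 2.15 and 2.17 times Slc38a2 with IL-22, against 0.759 and 0.782 times in controls. Slc38a9, the lysosomal arginine sensor that activates mTORC1, was higher at 3.03 and 2.61 FPKM with IL-22, against 0.916 and 1.61 FPKM in controls (0.77 ± 0.18, limma adjusted p = 0.00581), with a size that ran between 0.32 and 1.15 at pseudocounts of 5 and 0.1 FPKM. The lysosomal glutamine carrier Slc38a7 was higher by 0.25 (limma adjusted p = 0.0419), a call lost without any 1 of the 4 libraries and without the filter. Slc38a1 (SNAT1) measured 2.86 and 3.21 FPKM with IL-22, against 3.23 and 4.19 FPKM in controls, and did not pass. The summed FPKM of the 9 Slc38 genes was 75.7 ± 2.46 with IL-22 and 75.6 ± 2.22 in controls (SD, n = 2 each). Slc38a2 alone held 71.45% to 76.68% of that sum, so the sum mostly follows that gene.

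**Figure D3:**
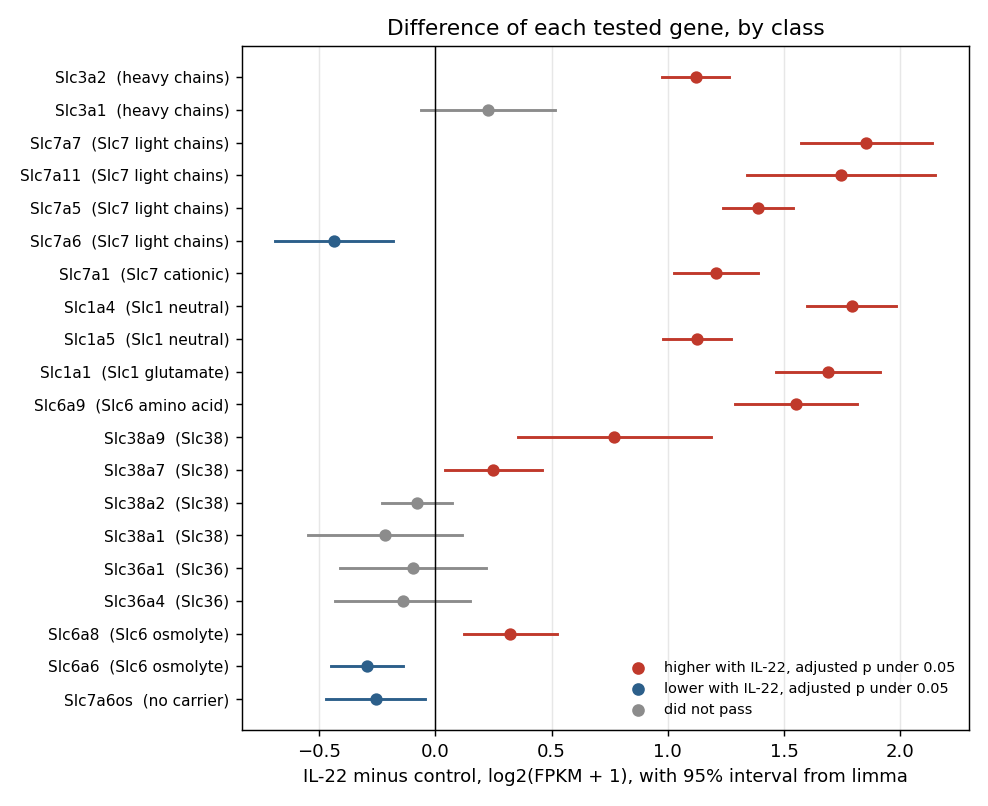
Difference between IL-22 and control libraries on the log2(FPKM + 1) scale with its 95% interval from limma for the 20 tested genes, grouped by class. The Slc1 genes and 4 of the Slc7 genes lie above 1, whereas Slc38a2 at -0.08 and both Slc36 genes lie near 0.

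Of the Slc6 family, whose members carry transmitters, glycine, taurine and creatine with sodium and chloride, 11 of 18 genes were listed at 0 throughout, including the dopamine carrier Slc6a3, the noradrenaline carrier Slc6a2 and the GABA carriers Slc6a11 and Slc6a13. Slc6a9 (GLYT1), the glycine carrier of glia, was at 15.0 and 13.3 FPKM with IL-22, against 3.84 and 4.51 FPKM in controls (1.55 ± 0.12, limma adjusted p = 8.03e-06). Slc6a6, the taurine carrier, went the other way at 45.5 and 47.7 FPKM with IL-22, against 56.9 and 57.7 FPKM in controls (-0.29 ± 0.07, limma adjusted p = 0.0052), a call lost without IL-22 library 1 (adjusted p = 0.0562). The creatine carrier Slc6a8 was higher by 0.32 (limma adjusted p = 0.0120), a call lost without control library 1 (adjusted p = 0.0623) or IL-22 library 1 (adjusted p = 0.101). Slc6a4, the serotonin carrier, was under the expression minimum, at 0.0918 and 0.138 FPKM with IL-22 and listed at 0 in both controls. Tested without that minimum, Slc6a4 did not pass (limma adjusted p = 0.0612).

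The proton-coupled carriers of the Slc36 family did not pass. Slc36a1 (PAT1), which exports small amino acids from lysosomes, measured 6.94 and 7.56 FPKM with IL-22, against 6.69 and 9.08 FPKM in controls, with overlapping groups and a 95% interval of -0.41 to 0.22. Slc36a4 measured 3.48 and 3.96 FPKM with IL-22, against 3.99 and 4.41 FPKM in controls. The 3 Slc43 genes, facilitated carriers of which the first 2 members move large neutral amino acids, lay at or under 0.445 FPKM in every library. Slc7a6os, which encodes a nuclear import factor for RNA polymerase II, was at 22.7 and 26.6 FPKM with IL-22, against 30.9 and 28.3 FPKM in controls. Its difference of -0.26 ± 0.09 (limma adjusted p = 0.0414) passed under 7 of 14 alternatives. It lies next to Slc7a6 without overlap in the RefSeq annotation of GRCr8, and the labels do not state that strand was kept, so reads past the end of either gene cannot be told apart.

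Added over all carriers and heavy chains, the families came to 712 ± 9.70 FPKM with IL-22 and 393 ± 4.35 FPKM in controls (SD, n = 2 each), a ratio of 1.81. The 4 genes Slc3a2, Slc7a5, Slc1a5 and Slc1a4 made up 83.6% of that net gain of 319 FPKM. The class ratios were 3.46 for the glutamate carriers of the Slc1 family, 3.33 for the amino-acid, glycine and proline carriers of the Slc6 family, of whose sum Slc6a9 alone held at least 96.5% in every library, 2.55 for the neutral carriers of the Slc1 family and 2.45 for the cationic carriers. They were 1.002 for the Slc38 family, 0.910 for the Slc36 family and 0.900 for the transmitter and osmolyte carriers of the Slc6 family. Each sum whose groups did not overlap had an exact two-sided permutation p of 0.33, the smallest that 2 libraries against 2 allow.

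**Figure D4:**
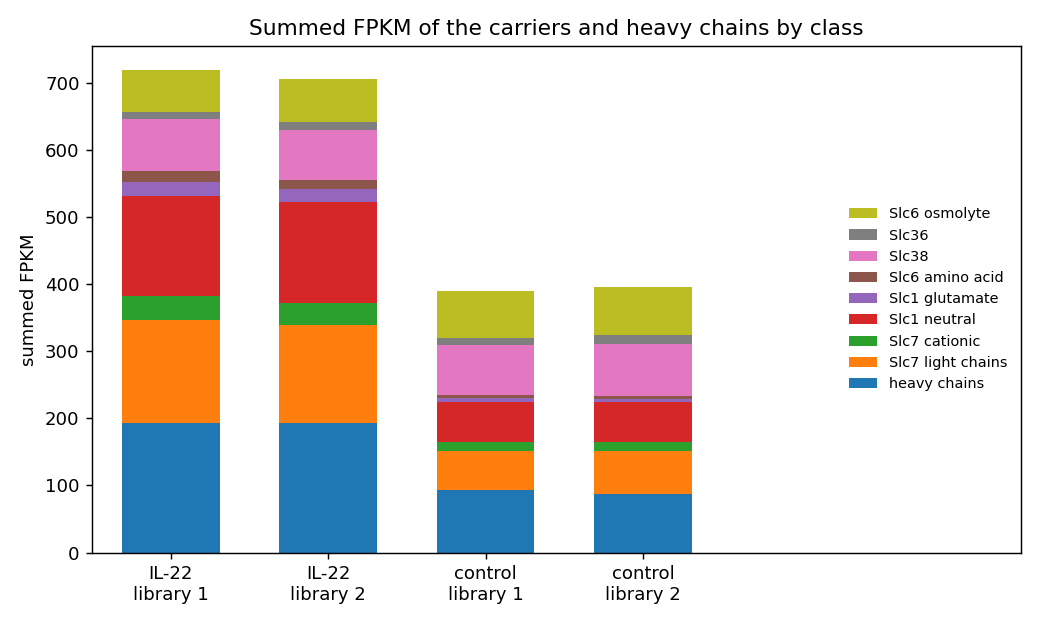
Summed FPKM of the carriers and heavy chains in each library, stacked by class, with the IL-22 libraries left of the controls. The Slc43 genes, at or under 0.445 FPKM, are not drawn. The IL-22 columns reach 719 and 705 FPKM and the control columns 390 and 396 FPKM, and the Slc38 and Slc6 osmolyte layers are of similar height in all 4.

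Since ATF4 with its C/EBP partners binds an element with the letters TGATGNAAN, the RefSeq promoter windows of GRCr8, from 250 bases before to 50 bases after a gene's start, were searched for it on both strands. A window was at hand for 45 of the 59 genes, with 49 windows in all. A gene was counted if any of its windows held the letters searched for, whereas the shares over all windows count single windows. The element was found in 3 of these 45, while 3.97% of all 33469 windows hold it. Of these 3, Slc1a4 and Slc7a1 were among the 10 higher genes with a window and Slc38a1 among the 35 others. Of those others only Slc3a1, Slc36a1, Slc36a4, Slc38a1, Slc38a2, Slc6a6, Slc7a6 and Slc7a6os were tested. The rest were under the expression minimum, so the 35 are no set of expressed genes to compare the higher ones with. The 250 bases before the start of Slc1a4, Slc7a1 and Slc38a1 are shown, with the element in capitals. They set both higher genes beside the one that did not pass.
Slc1a4 (chr14:98761563-98761812, - strand): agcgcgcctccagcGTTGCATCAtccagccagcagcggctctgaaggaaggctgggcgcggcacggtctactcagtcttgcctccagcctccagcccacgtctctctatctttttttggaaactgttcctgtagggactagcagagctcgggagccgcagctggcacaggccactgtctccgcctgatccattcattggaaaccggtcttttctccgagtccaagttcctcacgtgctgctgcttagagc
Slc7a1 (chr12:11664238-11664487, + strand): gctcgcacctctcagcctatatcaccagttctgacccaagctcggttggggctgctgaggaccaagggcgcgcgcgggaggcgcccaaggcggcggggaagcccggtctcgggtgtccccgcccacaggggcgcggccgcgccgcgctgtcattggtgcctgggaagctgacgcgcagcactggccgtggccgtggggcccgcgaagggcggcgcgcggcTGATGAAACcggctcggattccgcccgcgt
Slc38a1 (chr7:129681402-129681651, - strand): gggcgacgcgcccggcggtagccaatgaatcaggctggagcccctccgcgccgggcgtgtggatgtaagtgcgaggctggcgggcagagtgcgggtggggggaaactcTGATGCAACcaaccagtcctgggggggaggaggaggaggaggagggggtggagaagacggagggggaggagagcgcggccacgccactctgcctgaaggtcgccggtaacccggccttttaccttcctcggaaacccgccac
In Slc1a4 the element lies on the opposite strand and its first printed base is 236 bases before the start. It lies 30 bases before the start in Slc7a1 and 142 bases before it in Slc38a1. None of these 3 matches overlaps one of the other motifs searched. The E-box CACGTG was found in 8 of the 45 genes, 3 of them higher (Slc1a4, Slc38a7 and Slc7a5), where 6.42% of all windows hold it. The antioxidant response element TGACNNNGC was found in 9 of the 45, 3 of them higher (Slc3a2, Slc7a1 and Slc7a7), where 12.1% of all windows hold it, and in Slc36a1 it overlaps an E-box. The coordinates are those of GRCr8 and not of the build rn5 that the authors used, and a match is a description of letters, not of binding.

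Genes around the carriers were read from 4 lists, which were chosen with earlier results of these data known. Their shares describe the listed genes and are not an independent test. In the list of GCN2 and ATF4 response genes 23 were higher and 4 lower of 28 tested, with a median difference of 1.46, a share of 82.1% higher and 14.3% lower beside 27.6% and 30.8% of all rows tested. Nupr1 and Vldlr averaged under 1 FPKM in controls and were tested only through the IL-22 libraries, and without them 21 of 26 were higher. Atf4 itself was at 526 and 527 FPKM with IL-22, against 160 and 165 FPKM in controls (1.69), and its partner Ddit3 (CHOP) was at 224 and 259 FPKM with IL-22, against 50.1 and 46.3 FPKM in controls (2.30). Chac1 (3.83), Trib3 (3.78), Nupr1 (3.44) and Atf3 (2.66) showed the largest differences. The sensor kinase gene Eif2ak4 (GCN2) was lower at 14.1 and 14.4 FPKM with IL-22, against 17.4 and 18.5 FPKM in controls (-0.32, limma adjusted p = 0.011).

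In the list of genes that pass amino-acid levels to mTORC1, 13 were higher and 6 lower of 34 tested, with a median of 0.08, a share of 38.2% higher and 17.6% lower beside 27.6% and 30.8% of all rows. Rragd, a Rag GTPase that docks mTORC1 on lysosomes, was tested only through the IL-22 libraries, since it was at 5.36 and 5.45 FPKM with IL-22, against 0.677 and 0.678 FPKM in controls (1.93). Without Rragd, 12 of 33 were higher and 6 lower, with a median of 0.03. The leucine sensor gene Sesn2 (1.47), which stands in the ATF4 list too, the leucyl-tRNA synthetase gene Lars (1.12) and the GATOR1 subunit gene Nprl2 (0.74) were higher as well. Mtor, the kinase itself, was lower at 16.7 and 18.6 FPKM with IL-22, against 27.3 and 28.2 FPKM in controls (-0.62). Of 12 tested partner and trafficking genes 5 were higher and 2 lower, or 41.7% and 16.7% beside 27.6% and 30.8% of all rows, with a median of 0.13. Cd44 (1.17), whose variant forms hold xCT at the membrane in human tumour cells, Bsg (0.78), a glycoprotein found with CD98, and the arrestin gene Arrdc3 (0.53) were higher, and the kinase gene Sgk1 (-0.73), which promotes surface expression of several carriers, was lower. Of 13 tested amino-acid and dipeptide carriers from other families, mostly lysosomal and mitochondrial, 4 were higher and 4 lower, or 30.8% each way, close to the 27.6% and 30.8% of all rows, with a median of -0.08. There the largest differences were those of the mitochondrial ornithine carrier Slc25a2 (0.69), the lysosomal sialic acid carrier Slc17a5 (0.50), the mitochondrial glycine carrier Slc25a38 (-0.43) and the mitochondrial serine carrier Sfxn1 (0.42).

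**Figure D5:**
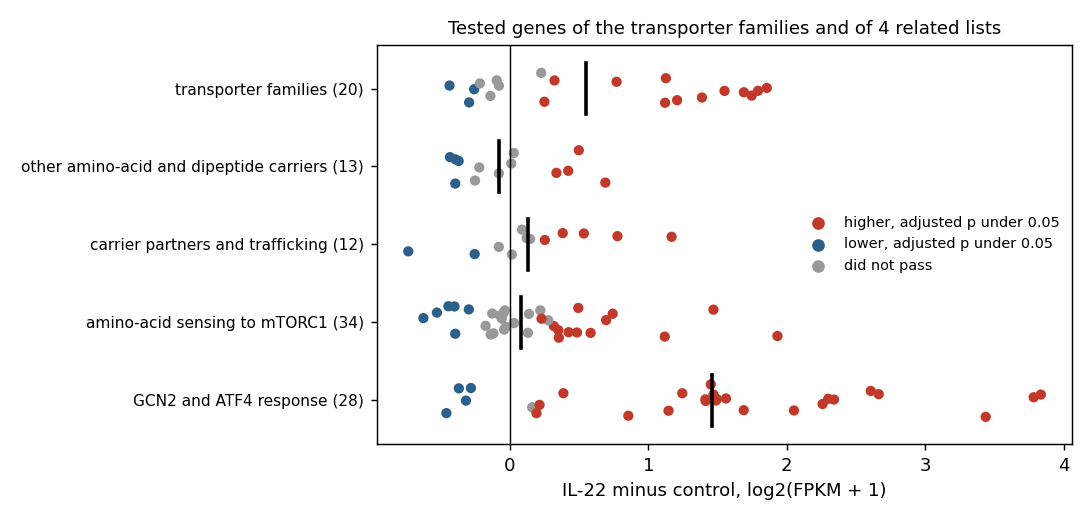
Differences between IL-22 and control libraries on the log2(FPKM + 1) scale of the tested genes of the transporter families and of 4 related lists, 1 point per gene, with the median as a vertical bar and the number of tested genes in brackets. The medians are 0.55 for the transporter families, -0.08 for other carriers, 0.13 for partners, 0.08 for mTORC1 sensing and 1.46 for the GCN2 and ATF4 response.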

How the data were processed

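Libraries were made from poly(A) RNA of RSC96 cells and sequenced on an Illumina instrument, as stated in the labels' protocols. For each gene the authors deposited FPKM in 1 column per library. The submitters' processing notes name the build rn5 and, without roles, TopHat2 and Cuffdiff. The annotation, filters, strand and scaling were not given in the sources used here. Since the deposited FPKM hold no read totals, absolute depth is unknown and no counting interval is given. Relative depth is the commonest ratio between libraries of rows under 0.15 FPKM.

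The test used limma 3.58.1 (R 4.3.3) on log2(FPKM + 1) for the 9485 of 17778 rows averaging 1 FPKM or more, with trend, two-sided, without covariates, and with Benjamini-Hochberg adjustment over all rows tested at a threshold of 0.05. Folds are ratios of mean FPKM, and the log2 scale understates changes of low genes. Members, classes, lists and motifs were chosen with earlier results of these data known. Genes given in full are members past the threshold by at least 0.5 or averaging at least 20 FPKM, both heavy chains, up to 4 genes per list, and Atf4, Ddit3, Eif2ak4 and Mtor. Others were described after their values were seen. Alternatives tried were quantile normalization, size factors, other pseudocounts, other filters, eBayes without trend or robust, the replicate block, summed symbols, and leaving out each library. Python 3.11.15, pandas 2.3.3, scipy 1.17.1 and matplotlib 3.10.9 were also used.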

Additional observations from a re-analysis of the deposited data

How the results depend on the processing

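Of the 15 called genes 8 kept their call under all 14 alternatives, and Slc7a11 and Slc38a9 kept it under the 13 run for them, since a minimum of 5 FPKM left them out. All 10 were higher. Of the 5 genes that did not pass, 0 gained a call, over 14 alternatives for 2 of them and 13 for the other 3, which that minimum left out. Leaving out 1 library gave 10 to 11 higher and 1 to 2 lower genes, and there the remaining library of the group is assumed to vary like the others. The 1 lower gene without control library 2 or IL-22 library 1 compares with 3 in all. The median difference was 0.735 with a pseudocount of 0.1, 0.290 with 5, 0.040 over 40 genes without the filter, 1.121 over 15 genes with a minimum of 5 FPKM and 0.450 with quantile normalization, and from 0.434 to 0.668 with 1 library left out. With fewer or more genes tested the set behind that median differs, and for the other settings the cause was not tested. With size factors the ratio of the neutral Slc1 carriers was 2.593 and that of the Slc6 transmitter and osmolyte carriers 0.916.

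Among the lists, without the filter 2 other carriers, 1 partner gene and 2 GCN2 and ATF4 genes were lower. With a minimum of 5 FPKM 1 other carrier was higher, with quantile normalization 2 GCN2 and ATF4 genes were lower, and without the trend 1 partner gene was lower. With 1 library left out, counts ran from 2 to 4 higher and 1 to 4 lower other carriers, 3 to 4 higher and 1 to 2 lower partner genes, 11 to 11 higher and 3 to 6 lower mTORC1 genes, and 21 to 23 higher and 2 to 3 lower GCN2 and ATF4 genes. Same-numbered libraries showed no shared deviation (r = -0.002 between their deviations), which cannot show whether the samples were paired. With the replicate block 12 genes were higher and 3 lower.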
